A study of Macaca mulatta with 20 samples.

Results

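CD36, LPL, LIPA, NPC1, NPC2 and VLDLR carry lipid from plasma lipoproteins into a cell or release cholesterol from its lysosomes. Their mRNAs were followed through the life of the rhesus macaque corpus luteum, the ovarian gland that forms after ovulation and secretes progesterone. The 6 genes were taken with every probe set that the platform annotation assigns to their symbol alone, which gave 9 probe sets of 52707 tested. LPL has 4 of the 9, and the other genes have 1 each. Across all genes, 14132 had at least 1 such probe set.

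The glands came from female macaques in natural menstrual cycles with no treatment named in the labels, and age was not given in the sources used here. Each of 20 glands was hybridised to its own 1-colour Affymetrix array, with 4 glands at each of 5 stages dated from the midcycle surge of luteinizing hormone. These were early (days 3 to 5, the gland forming), mid (days 7 to 8, at peak progesterone output), mid-late (days 10 to 12, still secreting), late (days 14 to 16, secretion ending) and very-late (days 18 to 19, at menses, the tissue breaking down). Values are RMA summaries on a log2 scale, so a difference of 1 is a doubling of signal. They are not calibrated between probe sets, and stages are therefore compared within a probe set. The exceptions are a rough gauge of background and the summed signals of marker lists below. As a gauge of the low end of the scale, 674 probe sets for viral genomes had a median of 3.42 and a 95th percentile of 4.30.

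Luteal cells make progesterone from cholesterol, and in primates much of that cholesterol arrives in plasma lipoproteins. Lipoprotein lipase (LPL) splits triglyceride in lipoproteins at the vessel wall, the VLDL receptor (VLDLR) binds triglyceride-rich particles, and CD36 takes up long-chain fatty acids and oxidised lipoproteins. Particles that are endocytosed reach the lysosome, where acid lipase (LIPA) frees cholesterol from its esters. NPC2, a soluble carrier, then hands the cholesterol to NPC1, a membrane protein through which it leaves the lysosome. Macrophages express most of these genes too and use the same route to clear lipid from dying cells. Gene roles given here are those known in human.

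Some arrays stood apart. The mean of 6 mitochondrial-genome probe sets was 7.02 to 8.93 on 7 arrays, against 11.5 to 12.45 on the remaining 13. The 7 low ones were the whole mid stage, replicate 4 of early, replicate 1 of mid-late and replicate 2 of very-late. Very-late replicate 1 had a GAPDH signal 2.70 log2 units higher at the 3' than at the 5' end, against 0.83 to 1.78 on the other 19 arrays. Very-late replicate 2 resembled its own stage least (r = 0.9729 with the other very-late arrays across probe sets, which are not independent replicates). The labelled tissue was checked on 9 markers of luteal steroid-making cells. STAR, which delivers cholesterol to mitochondria, averaged 13.19 to 13.36 before the very-late stage and 9.15 in very-late glands. HSD3B2, which makes progesterone, was at 12.00 in early, 11.92 in mid, 11.40 in mid-late, 9.35 in late and 6.05 in very-late glands, and in late against early glands 2 of the 9 markers were lower and 1 higher.

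Nearly all changes of the 6 genes that passed the test lay in the very-late glands: LPL, CD36, LIPA and NPC2 were higher there and NPC1 was lower. Across all 5 stages (limma's moderated F-test), 6 of the 9 probe sets passed at an adjusted p under 0.05, from 5 of the 6 genes, where 21.5% of all probe sets did. VLDLR and 2 LPL probe sets did not pass. In very-late against late glands 5 of 9 probe sets passed, all higher, beside 13.8% of all probe sets. In very-late against early glands 5 were higher and 1 lower (18.7% of all probe sets passed), and in very-late against mid glands, a comparison added after the values were seen, 6 were higher and 1 lower (18.6%). In late against early glands 1 of 9 passed, NPC2, with 7.58% of all probe sets. None of the 9 passed limma's test in mid against early (0.362% of all probe sets), mid-late against early (3.73%), mid-late against mid (0.0114%) or late against mid-late (0.0114%). The very-late comparisons share their 4 very-late arrays, so they are not independent of each other. The shares are over all probe sets, of which 27390 have no gene symbol. By gene, 10.2% were higher and 11.2% lower in very-late against late glands. The shares were 11.9% and 17% against early glands, and 13% and 15.5% against mid glands. LPL counts 4 times among the 9 probe sets, and the 6 genes were chosen with earlier results of these data known.

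**Figure D1:**
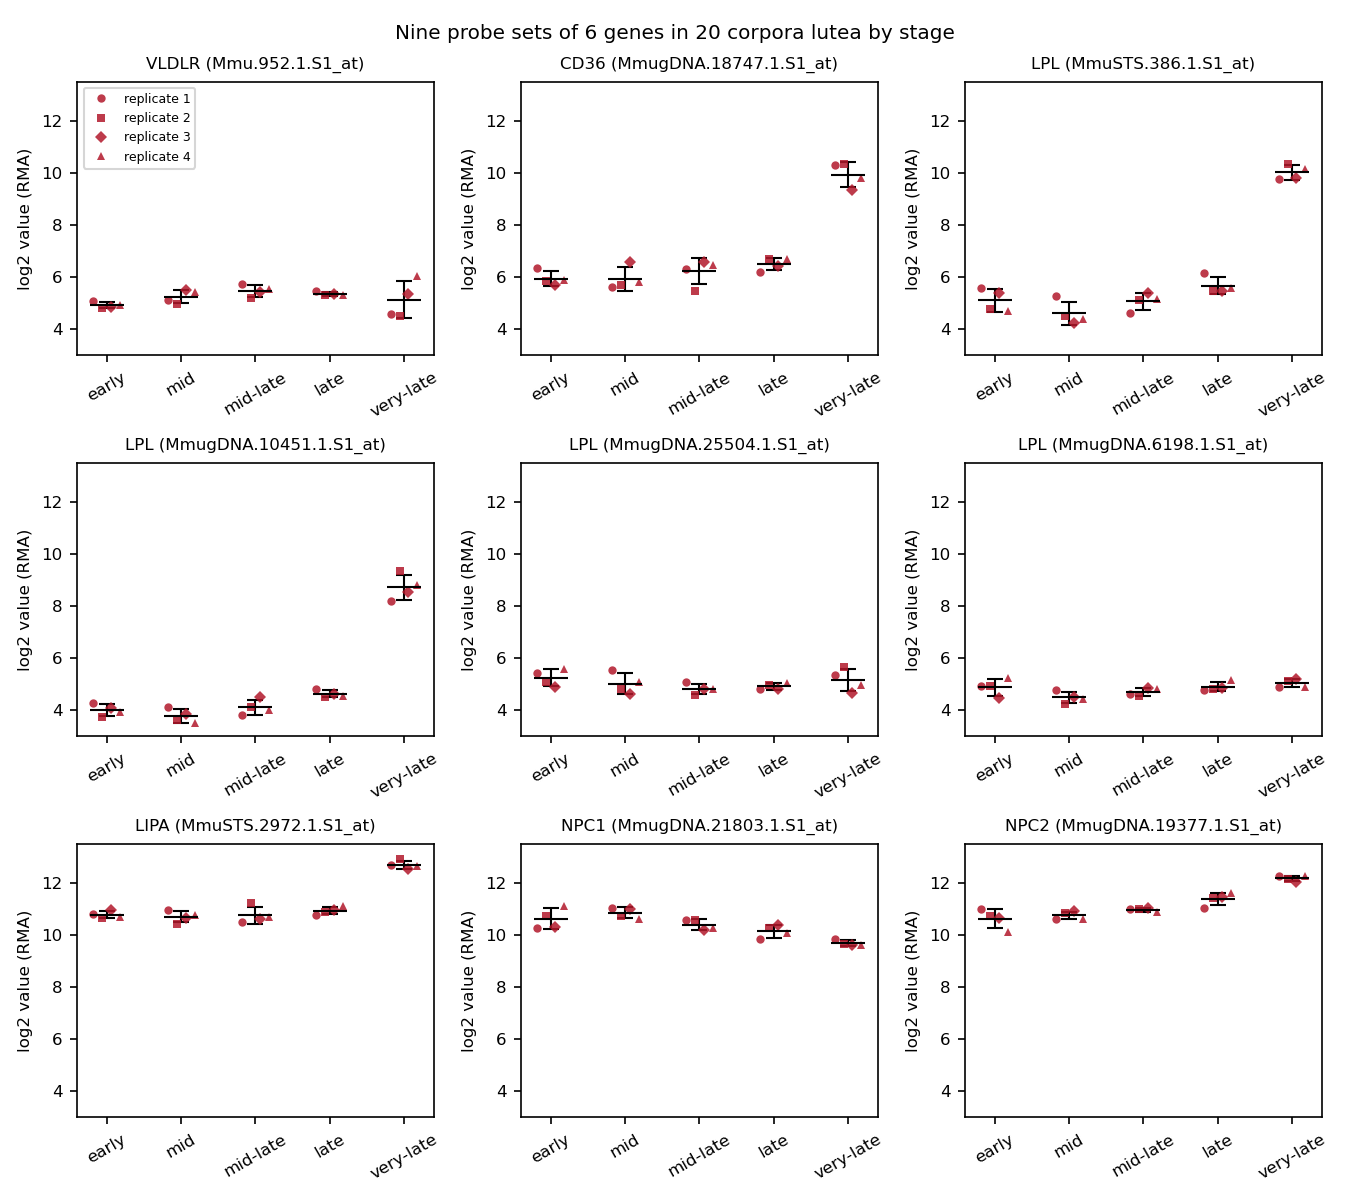
Log2 RMA value of each of the 9 probe sets (vertical axis) in each gland, by stage from early to very-late (horizontal axis). Points are single arrays with a symbol per replicate number, and horizontal bars with whiskers are the stage mean and SD (n = 4). The CD36 values at very-late (9.32 to 10.33) and those of 2 LPL probe sets stand clear of all earlier stages, LIPA and NPC2 step up, NPC1 ends lowest, and VLDLR spreads out at very-late.

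LPL, the lipase that releases fatty acids from circulating triglyceride, rose on 2 of its 4 probe sets, whose stage means spanned 5.41 and 4.93 log2 units. The other 2 spanned 0.43 and 0.54. On the LPL probe set of highest mean, MmuSTS.386.1.S1_at, the early glands were at 5.57, 4.79, 5.37 and 4.69, the mid glands at 5.26, 4.52, 4.22 and 4.40, and the mid-late glands at 4.61, 5.11, 5.38 and 5.17. The late glands were at 6.16, 5.48, 5.45 and 5.57, and the very-late glands at 9.74, 10.32, 9.81 and 10.16. Every very-late gland lay above every gland of the other stages, and the first 3 stages overlapped. The probe set averaged 10.01 ± 0.28 in very-late and 5.66 ± 0.33 in late glands (SD, n = 4 each), a rise of 4.34 ± 0.24 (SE; adjusted p = 2.86e-09) or 20.3-fold. Against mid glands (4.60 ± 0.46) the rise was 5.41 ± 0.24, or 42.5-fold.

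A second LPL probe set, MmugDNA.10451.1.S1_at, moved in the same way from a lower base. It read 8.18, 9.34, 8.53 and 8.81 in very-late glands, against 4.82, 4.52, 4.63 and 4.55 in late glands. The groups did not overlap, and the rise was 4.09 ± 0.20 (adjusted p = 5.84e-10) or 17.0-fold. Its early, mid and mid-late means of 4.01, 3.78 and 4.11 lay under the 95th percentile of the viral-genome probe sets, so for those stages the signal was not clearly above background. In late against early glands, all 4 late values lay above all 4 early ones, and the difference of 0.62 ± 0.20 did not pass (adjusted p = 0.0746). It passed without very-late replicate 1 (adjusted p = 0.0403) or replicate 2 (adjusted p = 0.0244), which enter that comparison only through the shared estimate of spread. On MmuSTS.386.1.S1_at the late glands were higher than early by 0.56 ± 0.24, which did not pass either (adjusted p = 0.208).

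The other 2 LPL probe sets did not follow. MmugDNA.25504.1.S1_at read 5.35, 5.65, 4.66 and 4.96 in very-late glands and 4.83, 4.98, 4.79 and 5.04 in late glands, a difference of 0.24 ± 0.21 with a 95% interval of -0.20 to 0.68 (adjusted p = 0.55). MmugDNA.6198.1.S1_at read 4.89, 5.13, 5.21 and 4.89 in very-late and 4.77, 4.81, 4.85 and 5.17 in late glands, a difference of 0.13 ± 0.14 with an interval of -0.17 to 0.43 (adjusted p = 0.664). Groups overlapped on both. MmugDNA.6198.1.S1_at was higher in very-late than in mid glands by 0.54 ± 0.14 (adjusted p = 0.0114), a small change beside those of the first pair. The gap between a probe set that rose and one that did not, taken within each array, was wider in very-late than in late glands by 3.84 to 4.21 in the 4 pairings. The pairings follow from the changes themselves, so these gaps are a description with no test. Which part of the LPL transcript each probe set reads was not analysed here.

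CD36, the scavenger receptor and fatty acid carrier, rose at the very-late stage and passed in no comparison among the first 4 stages. Early glands were at 6.35, 5.83, 5.69 and 5.88, mid glands at 5.62, 5.69, 6.58 and 5.80, and mid-late glands at 6.32, 5.48, 6.59 and 6.47. Late glands were at 6.20, 6.68, 6.43 and 6.70, and very-late glands at 10.31, 10.33, 9.32 and 9.78. The 16 earlier values overlapped from stage to stage, and the lowest very-late value lay above all of them. CD36 averaged 9.93 ± 0.48 in very-late and 6.50 ± 0.24 in late glands (SD, n = 4 each), a rise of 3.43 ± 0.27 (adjusted p = 9.57e-08) or 10.8-fold. Against early glands (5.94 ± 0.29) the rise was 4.00 ± 0.27 or 16.0-fold (adjusted p = 9.25e-09). Late and early glands differed by 0.56 ± 0.27, which did not pass (adjusted p = 0.258).

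VLDLR, the receptor for triglyceride-rich particles, did not pass in any comparison. Early glands were at 5.07, 4.82, 4.86 and 4.91, mid glands at 5.13, 4.96, 5.49 and 5.41, and mid-late glands at 5.73, 5.19, 5.43 and 5.55. Late glands were at 5.48, 5.30, 5.34 and 5.32. Every mid-late and every late gland lay above every early gland, by 0.56 ± 0.23 (adjusted p = 0.24) and 0.44 ± 0.23 (adjusted p = 0.329) on average. Fitted on the 8 arrays of both stages alone, these differences had adjusted p = 0.0262 and 0.0087.

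The very-late glands were split on VLDLR, at 4.59, 4.51, 5.35 and 6.03 in replicates 1 to 4, with an SD of 0.71 against 0.08 in late glands. Replicates 1 and 2, the arrays that stood apart above, were the 2 lowest of all 20, and replicate 4 was the highest. With all 4, very-late differed from early glands by 0.20 ± 0.23 (adjusted p = 0.652), and without replicates 1 and 2 by 0.77 (adjusted p = 0.00533). Very-late differed from late glands by -0.24 ± 0.23 (adjusted p = 0.616), and without very-late replicate 4 by -0.54 (adjusted p = 0.0461). The direction at very-late thus rests on which glands are counted. In the same 4 very-late glands the summed linear signal of 13 endothelial markers was 3740, 2660, 5690 and 4080, and that of 9 markers of luteal steroid-making cells was 3860, 2560, 3770 and 6310. The part of these in the VLDLR split was not tested.

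LIPA, the lysosomal acid lipase, rose at the very-late stage and passed in no comparison among the first 4 stages. Early glands were at 10.79, 10.65, 10.94 and 10.69, mid glands at 10.95, 10.43, 10.63 and 10.75, mid-late glands at 10.51, 11.20, 10.59 and 10.67, and late glands at 10.75, 10.87, 10.96 and 11.08. Very-late glands were at 12.69, 12.89, 12.51 and 12.63, above all 16 others, which overlapped. LIPA averaged 12.68 ± 0.16 in very-late and 10.92 ± 0.14 in late glands (SD, n = 4 each), a rise of 1.76 ± 0.14 (adjusted p = 9.92e-08) or 3.40-fold. Between late and early glands the difference was 0.15 ± 0.14, with a 95% interval of -0.14 to 0.44.

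NPC2, the soluble cholesterol carrier of the lysosome, was the only one of the 9 probe sets to pass before the very-late stage. Early glands were at 10.98, 10.73, 10.65 and 10.11, mid glands at 10.60, 10.84, 10.90 and 10.61, and mid-late glands at 10.98, 10.97, 11.03 and 10.87. Late glands were at 11.04, 11.41, 11.44 and 11.61, and very-late glands at 12.24, 12.15, 12.03 and 12.24. The late values lay above all early, mid and mid-late ones, and the very-late values above all late ones. Late exceeded early glands by 0.75 ± 0.14 (adjusted p = 0.00316) or 1.69-fold, and very-late exceeded late glands by 0.79 ± 0.14 (adjusted p = 8e-04) or 1.73-fold. The step of 0.41 ± 0.14 in late against mid-late glands did not pass (adjusted p = 0.558).

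NPC1, the membrane exporter that receives cholesterol from NPC2, went the other way. Early glands were at 10.27, 10.73, 10.31 and 11.12, mid glands at 11.03, 10.74, 10.99 and 10.60, and mid-late glands at 10.56, 10.57, 10.17 and 10.27. Late glands were at 9.82, 10.25, 10.38 and 10.08, and very-late glands at 9.82, 9.66, 9.61 and 9.62. The highest mean was at mid and the lowest at very-late, where the values lay below or level with every other gland. All 4 mid arrays and early replicate 4, the highest early value, were in the low mitochondrial group. The mid peak can therefore not be told apart from that split of arrays. NPC1 averaged 9.68 ± 0.10 in very-late and 10.84 ± 0.21 in mid glands (SD, n = 4 each), so it fell by 1.16 ± 0.17 (adjusted p = 4.7e-05), to 0.447 times the mid signal. Against early glands (10.61 ± 0.40) it fell by 0.93 ± 0.17 (adjusted p = 0.000453).

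The steps of NPC1 between neighbouring stages did not pass. Very-late against late glands differed by -0.45 ± 0.17 (adjusted p = 0.0807). This passed without early replicate 4 (adjusted p = 0.0331), without late replicate 1 (-0.56, adjusted p = 0.0387) and when the 2 mitochondrial groups entered the fit as a covariate (-0.53, adjusted p = 0.0317), but not within the 13 arrays of the high group (-0.45 ± 0.15, adjusted p = 0.0761). Late against early glands differed by -0.48 ± 0.17 (adjusted p = 0.0961), and by -0.59 without early replicate 1 (adjusted p = 0.0427). Mid-late against mid glands differed by -0.45 ± 0.17 with no overlap and did not pass (adjusted p = 0.665).

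The 2 partners of lysosomal export moved apart in very-late against early glands, where both changes passed. In very-late against late glands the change of NPC2 passed and that of NPC1 did not. NPC2 minus NPC1, taken within each array, averaged 2.49 ± 0.10 in very-late and 1.24 ± 0.20 in late glands (SD, n = 4 each), a change of 1.25 in the gap. The change of LIPA exceeded that of NPC1 by 2.22 and that of NPC2 by 0.97 in the same comparison. The pairs were chosen with the changes known, so they are given with no test. These are differences of changes and say nothing about which transcript is more abundant.

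**Figure D2:**
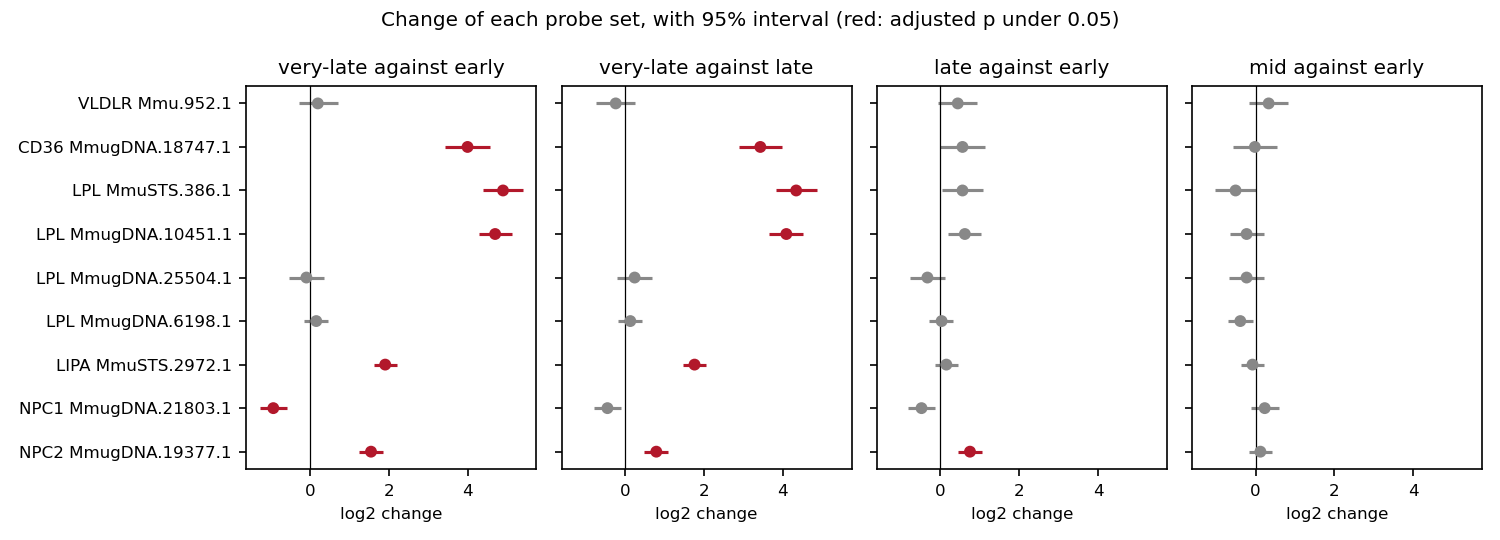
Log2 change of each probe set (points) with its 95% interval (bars) in 4 comparisons. Red marks an adjusted p under 0.05. LPL on 2 probe sets, CD36, LIPA and NPC2 lie right of 0 in both very-late panels, and 2 LPL probe sets and VLDLR have intervals that include 0 there. NPC1 lies left of 0 in both, red in very-late against early and not red in very-late against late. In mid against early no probe set is red.

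The very-late changes passed within 1 mitochondrial group of arrays too. Among the 13 arrays of the high mitochondrial group, very-late exceeded late glands by 4.24 ± 0.20 and 3.88 ± 0.17 on the 2 LPL probe sets that rose, by 3.30 ± 0.28 for CD36, by 1.69 ± 0.14 for LIPA and by 0.80 ± 0.12 for NPC2 (SE; adjusted p = 6.66e-08 to 0.00102). NPC1 in very-late against early glands was at -0.75 ± 0.16 there (adjusted p = 0.00591), and VLDLR in very-late against late glands at -0.04 ± 0.24. In the low group only very-late replicate 2 and the 4 mid arrays could be set side by side, with no test. Very-late replicate 2 exceeded the mid mean by 5.72 on MmuSTS.386.1.S1_at, by 4.41 for CD36, by 2.20 for LIPA and by 1.41 for NPC2, and NPC1 was at -1.18.

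Markers of other cells shifted at the very-late stage as well. Of 14 measured macrophage markers 7 rose and none fell in very-late against late glands, with a median change of 0.98 where the median over all genes was 0.008. Their summed linear signal was 12200 to 18000 in very-late glands and 3690 to 6490 in late glands. It was 2350 to 3140 in early and 1120 to 1920 in mid glands. Such a sum follows the brightest probe sets most, here TYROBP (11.95 in very-late glands) and LYZ (11.66) among others, so dim markers hardly count. CD68, a lysosomal protein of macrophages, averaged 10.90 ± 0.42 in very-late and 8.20 ± 0.30 in late glands (SD, n = 4 each). MRC1 averaged 7.77 in very-late and 7.73 in late glands, C1QC 7.69 and 8.61, and ITGAM stayed under the viral 95th percentile at every stage.

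The 9 measured markers of luteal steroid-making cells moved the opposite way, with 7 lower and none higher (median -2.87). Their summed signal was 2560 to 6310 in very-late and 21500 to 26600 in late glands. Of 13 endothelial markers 5 fell and none rose (median -0.37), where 10.2% of all genes rose and 11.2% fell. PECAM1 was at 9.88 in very-late and 9.72 in late glands, and EMCN at 7.73 and 8.83. Of 6 platelet markers none passed limma's test in that comparison, and of 5 adipocyte markers 1 rose. Of 5 smooth muscle and pericyte markers 2 fell, of 6 fibroblast markers 2 fell, of 5 lymphocyte markers 1 rose, and of 3 erythrocyte markers none passed limma's test. Among the adipocyte markers, GPD1 averaged 4.74 in very-late and 3.84 in late glands, and FABP4 5.32 ± 1.02 and 3.91 ± 0.24 (SD, n = 4 each). ADIPOQ, a hormone of fat cells, was at 4.70 in very-late and 4.93 in late glands, and LEP at 5.06 and 4.96. The late means of GPD1 and FABP4 lay under the viral 95th percentile. FLT1, GP9, TUBB1, CLEC1B, CIDEA, MS4A1, CD79A and AHSP stayed under it at every stage, so their changes are within background. In whole tissue, fewer cells of a type and less RNA per cell cannot be told apart, and neither can more macrophages and more signal per macrophage. The part of the macrophage and luteal shifts in the changes of LPL, CD36, LIPA, NPC2 and NPC1 was not tested.

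**Figure D3:**
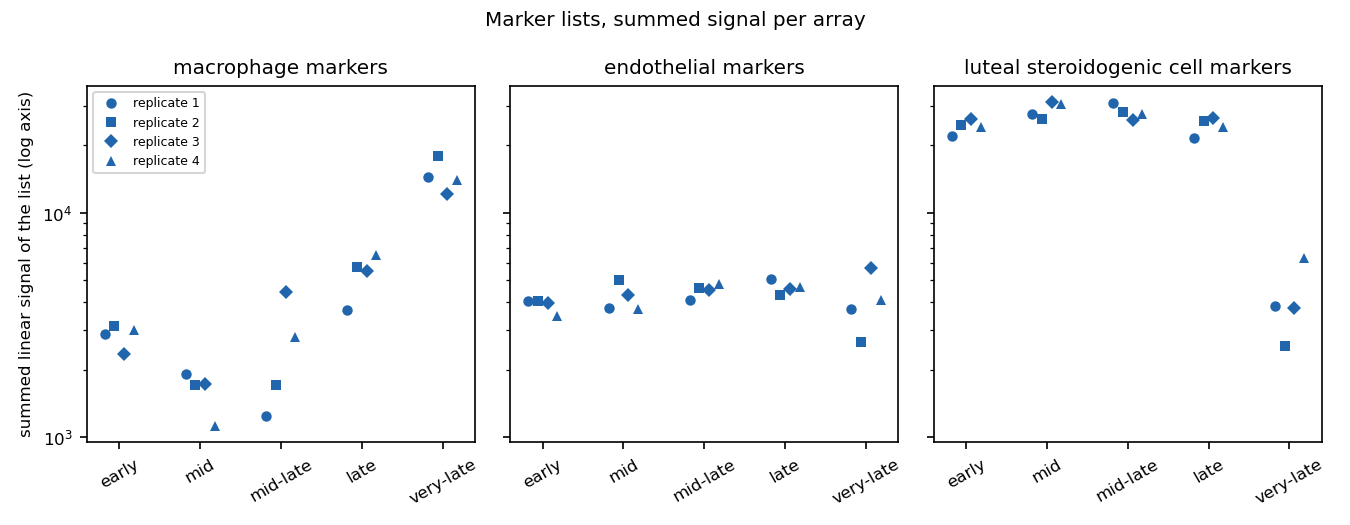
Summed linear signal of 3 marker lists on each array (vertical log axis) by stage. Points are arrays with a symbol per replicate number. The 14 macrophage markers reach 12200 to 18000 at very-late, the 9 luteal markers drop to 2560 to 6310, and the 13 endothelial markers keep to 2660 to 5690.

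Genes around the members were followed from lists drawn up by pathway, with 1 probe set for each gene, that of highest mean. In very-late against late glands 10.2% of all 14132 genes rose and 11.2% fell. Counts below leave out the 6 members.

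In triglyceride lipolysis, none of 6 measured genes rose and 3 fell in very-late against late glands. ANGPTL4, a secreted inhibitor of LPL, fell by 3.45 ± 0.52 (adjusted p = 0.000143), to 6.54 ± 1.43 in very-late against 9.98 ± 0.14 in late glands (SD, n = 4 each). The 4 very-late glands were at 6.31, 4.92, 6.52 and 8.39, and without replicate 4 the change was -4.06 (adjusted p = 3.72e-06). LMF1, a chaperone of the endoplasmic reticulum that LPL needs to fold, fell by 1.88 ± 0.27 (adjusted p = 9.57e-05), on 1 of its 2 probe sets. LIPC, hepatic lipase, was the third, at 3.65 in very-late and 3.97 in late glands, but all its stage means lay under the viral 95th percentile, so its change is within background. GPIHBP1, which anchors LPL to capillary endothelium, was higher in very-late than in early glands by 1.13 ± 0.15 (adjusted p = 2.41e-05) and in late than in early glands by 0.75 ± 0.15 (adjusted p = 0.00435), from an early mean of 4.27 that is itself under that percentile. Between very-late and late glands it differed by 0.37 ± 0.15 (adjusted p = 0.119).

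On the list of lipoprotein receptors and adaptors, 2 of 8 measured genes rose and 2 fell in very-late against late glands. That list also holds genes that are neither, among them LCAT and MYLIP. SORL1, a sorting receptor, fell by 2.61 ± 0.30 (adjusted p = 7.21e-06), on 1 of 2 probe sets. LCAT, the plasma enzyme that esterifies lipoprotein cholesterol, fell by 1.74 ± 0.22 (adjusted p = 2.53e-05). MYLIP, a ubiquitin ligase that sends the VLDL receptor for degradation, rose by 0.90 ± 0.15 (adjusted p = 0.000472), on all 3 of its probe sets. It was at 8.24 ± 0.21 in very-late, 7.34 ± 0.17 in late and 6.27 ± 0.35 in early glands. DAB2, a clathrin adaptor for lipoprotein receptors, rose by 0.74 ± 0.16 (adjusted p = 0.00427), on 3 of 5 probe sets.

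Of 9 measured scavenger receptors besides CD36, 4 rose and 1 fell. CD68, MSR1 and MARCO were also on the macrophage marker list above, so the counts of these lists are not independent. CD68 rose by 2.70 ± 0.27 (adjusted p = 1.84e-06), on 1 of 2 probe sets, and MSR1, the class A scavenger receptor of macrophages, was at 5.78 in very-late and 4.04 in late glands (adjusted p = 0.00138). SCARA5, a ferritin receptor, was at 5.51 in very-late and 4.28 in late glands (adjusted p = 0.000356), on 1 of 3 probe sets. The late means of MSR1 and SCARA5 lay under the viral 95th percentile of 4.30, so these rises start from background and their size is at best a lower bound. MARCO rose by 0.62 ± 0.15 (adjusted p = 0.0107) from a late mean of 4.33, next to that limit. STAB1, a clearance receptor of sinusoidal endothelium and macrophages, fell by 0.97 ± 0.21 (adjusted p = 0.00367), on 1 of 2 probe sets.

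In very-late against early glands 5 of 15 measured genes of fatty acid uptake and activation were higher and 2 lower, with a median change of 0.04. There 11.9% of all genes were higher and 17% lower. In very-late against late glands 5 of the 15 rose and none fell. FABP5, a cytosolic fatty acid carrier, was at 11.65 ± 0.29 in very-late and 8.32 ± 0.32 in late glands, a rise of 3.33 ± 0.27 (adjusted p = 1.47e-07), on 1 of 2 probe sets. ACSL5 and ACSL1, which activate fatty acids with coenzyme A, rose by 2.22 ± 0.35 (adjusted p = 0.000221) and 1.65 ± 0.30 (adjusted p = 0.000919), each on all its probe sets. SLC27A1, a fatty acid transporter, rose by 0.48 ± 0.13 (adjusted p = 0.0189) and no longer passed without late replicate 1 or 2 or very-late replicate 1 (adjusted p = 0.0524 to 0.0683). PPARG, a nuclear receptor known to induce CD36 and LPL, rose by 1.22 ± 0.21 (adjusted p = 0.000547). It was at 7.12 ± 0.46 in very-late and 5.90 ± 0.14 in late glands, with the mid glands at 7.13, 6.41, 6.49 and 6.83. Against early glands its rise was 0.63 (adjusted p = 0.0452). That call was lost when any of several single arrays was left out (adjusted p = 0.0501 to 0.158). SLC27A5, which passed in 4 comparisons, was at 5.11, 5.53, 5.43 and 5.21 in early and 4.71, 4.74, 4.80 and 4.81 in very-late glands.

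Of 17 measured genes of lysosomal cholesterol release and onward transport, 5 rose and 2 fell, with a median change of 0.11. TFEB, a transcription factor for lysosomal genes, rose by 0.83 ± 0.11 (adjusted p = 5.45e-05), and LAMP2, a lysosomal membrane protein, by 0.54 ± 0.15 (adjusted p = 0.0217), on 1 of 2 probe sets. LAMP2 no longer passed without late replicate 1 or 2 or very-late replicate 2 or 4 (0.43 to 0.52, adjusted p = 0.0566 to 0.0805), and VPS35, which passed at adjusted p = 0.0449, lost its call without most of the 20 arrays in turn. GRAMD1A, which carries cholesterol to the endoplasmic reticulum, rose by 0.67 ± 0.14 (adjusted p = 0.00257). STARD4, a cytosolic sterol carrier, fell by 3.05 ± 0.16 (adjusted p = 1.78e-09), to 5.31 ± 0.23 in very-late against 8.36 ± 0.33 in late glands. MITF, a relative of TFEB, was lower in late than in early glands by 1.15 ± 0.19 (adjusted p = 0.00118), but its second probe set passed in the opposite direction to it in very-late against late glands.

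Of 10 measured genes on a list of other lysosomal hydrolases and their partners, 6 were higher and none lower on the probe set used, with a median change of 0.69. Not all are lipid hydrolases: GM2A is an activator protein and TPP1 a peptidase. ASAH1, acid ceramidase, rose by 1.38 ± 0.12 (adjusted p = 4.06e-07), on 4 of 5 probe sets. GM2A, the activator of ganglioside breakdown, rose by 2.54 ± 0.52 (adjusted p = 0.00224) and PPT1, a thioesterase, by 1.09 ± 0.16 (adjusted p = 0.000101), each on 1 of 2 probe sets. GALC and TPP1 rose on the probe set used, but other probe sets passed in the opposite direction (2 of 5 for GALC and 3 of 4 for TPP1), so their direction is unsettled. HEXA, a hexosaminidase subunit, rose by 0.58 ± 0.16 (adjusted p = 0.0181) and no longer passed without late replicate 1 (adjusted p = 0.0581) or very-late replicate 2 (adjusted p = 0.0604).

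Of 7 measured genes on the list of cholesteryl ester storage, which also holds regulators of triglyceride breakdown, 1 rose and 2 fell in very-late against late glands. SOAT2, an enzyme that esterifies cholesterol, was higher at 5.86 ± 0.65 in very-late against 4.13 ± 0.14 in late glands (adjusted p = 1.43e-05). Its means at the first 4 stages lay under the viral 95th percentile, so the size of its rise is at best a lower bound. G0S2, an inhibitor of triglyceride lipase, fell by 1.21 ± 0.24 (adjusted p = 0.00178), and ABHD5, that lipase's activator, by 1.48 ± 0.25 (adjusted p = 0.000468). In very-late against early glands 1 of the 7 was higher and 4 were lower, with a median change of -0.59. The lower ones were G0S2, ABHD5, PNPLA2 and PLIN3. Of all genes 11.9% were higher and 17% lower in that comparison.

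Before the very-late stage, in late against early glands, 4.22% of all genes rose and 8.07% fell, and the lists moved less. Of the 8 genes on the receptor and adaptor list 3 rose and none fell. LCAT rose by 1.42 ± 0.22 (adjusted p = 0.000761) and MYLIP by 1.07 ± 0.15 (adjusted p = 0.000372). APOE, the ligand by which remnant particles bind lipoprotein receptors, rose by 1.04 ± 0.13 (adjusted p = 0.000137). None of these 3 is itself a receptor or adaptor. Among the 9 scavenger receptors none passed limma's test. Of the 17 lysosomal and transport genes 1 rose and 2 fell (of these, GRAMD1A no longer passed without early replicate 1 or 3 or late replicate 2 or 4, adjusted p = 0.0538 to 0.0796). Of the 10 genes on the hydrolase list ASAH1 rose, as did TPP1 on its 1 probe set used, with the unsettled direction given above. In the same comparison, which is where NPC2 first passed, 2 of 14 macrophage markers rose, LYZ and CYBB, and the summed macrophage signal was 3690 to 6490 in late and 2350 to 3140 in early glands. Of 13 endothelial markers 5 rose, beside GPIHBP1. The part of these markers in the rises of NPC2 and GPIHBP1 was not tested.

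**Figure D4:**
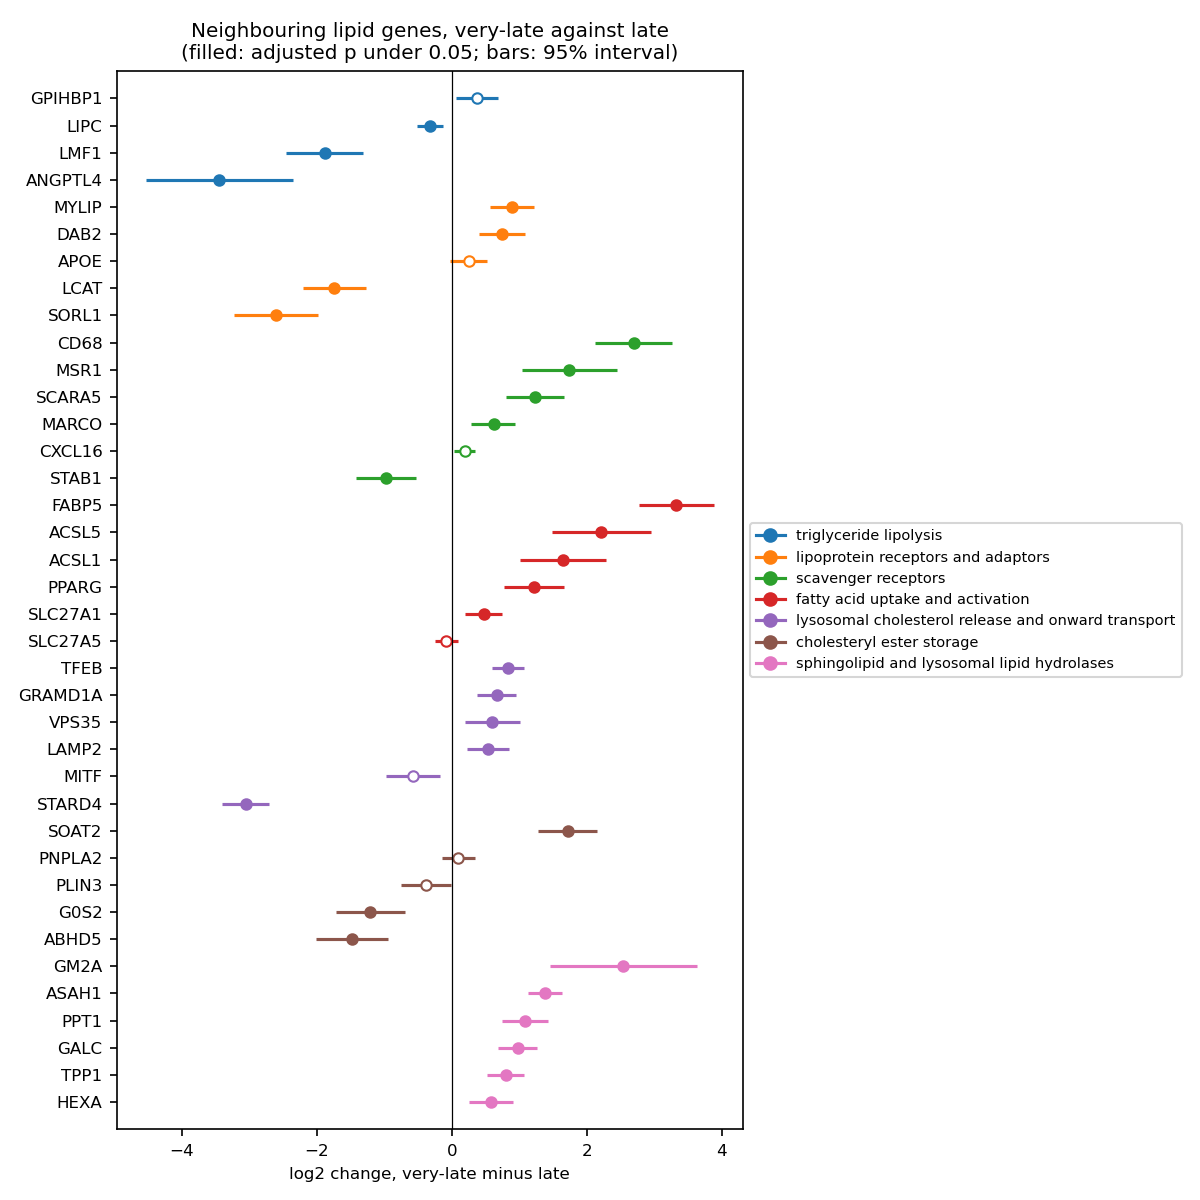
Log2 change in very-late against late glands (horizontal axis) of the genes named by rule from 7 pathway lists, with 95% intervals. Filled points have an adjusted p under 0.05. ANGPTL4 (-3.45) and STARD4 (-3.05) lie farthest left and FABP5 (3.33) farthest right.

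The genes whose pattern lay nearest to each member were sought over the 20 arrays among 14131 other genes, by the root mean square distance between log2 values centred on their own mean. It is a description of likeness in these arrays, all of which share the stage steps. Nearest to LPL were RAC2, a small GTPase of blood cells, at 0.41 log2 units, PLA2G7, the lipoprotein-associated phospholipase, at 0.48, and PRAM1, an adaptor of myeloid cells, at 0.49. RAC2 had a mean of 9.65 in very-late and 5.89 in late glands, and PLA2G7 of 8.41 and 4.34 in the same stages. Nearest to CD36 were EVI2A at 0.33, the fructose transporter SLC2A5 at 0.34 and the small GTPase RAB42 at 0.36.

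LIPA had its nearest patterns in PLEKHB2 (0.19), FXYD5 (0.22) and JAML (0.23), an adhesion molecule of leukocytes. For NPC2 they were PLTP, the phospholipid transfer protein of plasma (0.19), SYNGR2 (0.22) and IGF2R (0.22), the receptor that carries lysosomal enzymes to the lysosome. PLTP averaged 9.30 in very-late, 8.30 in late and 7.90 in early glands, and IGF2R 10.26, 9.70 and 8.86. The nearest to NPC1 were PIGP (0.19), the kinase CDK16 (0.20) and ROMO1 (0.21), a mitochondrial membrane protein. VLDLR, whose stage means spanned 0.56, was not given neighbours.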

How the data were processed

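The authors made the deposited log2 values with RMA, 1 per probe set and array, per the submitters' processing notes; the RMA version, chip definition and genome build are not given in the sources used here. The log2 scale was read from the values (2.48 to 14.28, array medians 3.88 to 3.98), and they were used with no further scaling. The file holds 52865 probe sets, of which 158 are array controls and were not tested. Stages came from the sample titles. In R 4.3.3, limma 3.58.1 fitted the 5 stage means to all 20 arrays (15 residual and 2.75 prior degrees of freedom), two-sided, with Benjamini-Hochberg adjustment over 52707 probe sets. Each later stage was set against early, and consecutive stages against each other. For arrays, their number limits the precision.

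Gene symbols came from the platform annotation, updated through gene identifiers (340 probe sets unmatched). Named were all member probe sets, up to 6 genes of each list that passed in the most comparisons, and the 3 nearest patterns of members whose stage means span at least 1 log2 unit. The members and lists were chosen with earlier results of these data known. Arrays with the same replicate number did not deviate together (correlations of -0.21 to 0.21, over 0.1 in 6 of 40 pairs), so replicates were not paired. The procedure was tested on simulated data with independent noise and no groups of arrays. That test therefore does not cover the mitochondrial split of these arrays. Alternatives were a filter on dim probe sets, 2 other scalings, a trended robust prior, array weights, a replicate block, other thresholds and units, and arrays left out.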

Additional observations from a re-analysis of the deposited data

Results flagged for a closer look

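In each group of 4 arrays, the gap from the highest or lowest array to its neighbour was divided by the group's range and set against Dixon's critical value for 4 arrays. None of the 45 groups of the 9 member probe sets passed it, but LPL on MmuSTS.386.1.S1_at in late replicate 1 (6.16, ratio 0.828) and CD36 in mid replicate 3 (6.58, ratio 0.809) came close. Among all 235 groups, which include the named pathway genes, 16 passed, where chance gives about 5%. At the very-late stage DAB2 was lowest in replicate 1 (10.05) and ASAH1 lowest in replicate 3 (12.31), while MSR1 (7.45) and ACSL5 (10.58) were highest in replicate 2. At the late stage, ACSL1 (6.08) and HEXA (8.34) were lowest and VPS35 highest (7.81) in replicate 1. At mid-late, ANGPTL4 (9.14) and ASAH1 (10.68) were lowest and HEXA highest (8.41) in replicate 1, and LIPC was highest in replicate 2 (3.91). At mid, SORL1 was lowest in replicate 1 (8.31) and ASAH1 in replicate 2 (10.24). At early, STAB1 was lowest in replicate 3 (7.20), CXCL16 in replicate 2 (4.42) and GALC in replicate 4 (9.62).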

How the results depend on the processing

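Among recomputed tests of single member probe sets, 2121 kept their side of the threshold, 15 gained a call, and none lost one or turned a called direction. In late against early, the 1 call became 2 when dim probe sets were dropped, 2 when arrays were weighted, 2 when very-late replicates 1 and 2 were dropped, and 3 on the 8 arrays of both stages alone; leaving out single arrays gave 1 to 2. In mid-late against early, the 0 calls became 1 on the 8 arrays of both stages and 1 when very-late replicates 1 and 2 were dropped. The cause was not tested. The replicate block left 5 calls in very-late against late and 6 in very-late against early, and it changed no other count. CD36, LIPA, NPC1 and NPC2 each rest on 1 probe set, and 2 of the 4 LPL probe sets kept means of 4.49 to 5.24.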
